A study of Mus musculus with 2 samples.

Results

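Voltage-gated potassium channel genes were taken as the protein-coding genes of GENCODE M21 whose symbols start with Kcna, Kcnb, Kcnc, Kcnd, Kcnf, Kcng, Kcnh, Kcnq, Kcns or Kcnv, which gave 43 of 21853 protein-coding genes. The rule used symbols and no measured value, and by its letters it also took the 3 Kcnab genes, which encode auxiliary beta subunits and are described here as a subfamily of their own. DNase-seq maps accessible chromatin by sequencing the ends of DNA that DNase I cuts. It was applied to tissue of female B6CASTF1/J mice, the F1 offspring of C57BL/6J and CAST/EiJ parents, aged 2 months, which carry no treatment or added allele in the labels. The tissue is hippocampus by one label, and another narrows it to an unnamed layer. There is 1 group of 2 libraries, labelled biological replicates 1 and 2, with 1 donor record and separate biosample records. Separate animals are not stated, so the spread between libraries may be technical, and with 1 group no condition was compared and no p-value was computed.

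Voltage-gated potassium (Kv) channels open when the membrane depolarises and let potassium leave the cell, which ends action potentials and sets how fast and how often a neuron fires. A channel is a tetramer of pore-forming subunits. Subunits of the Kcna, Kcnb, Kcnc, Kcnd, Kcnh and Kcnq subfamilies form working channels, while the Kcnf, Kcng, Kcns and Kcnv subunits are electrically silent on their own and modify channels of the Kcnb subfamily, and Kcnab subunits bind to the inner face of Kcna channels. In the hippocampus, Kcna channels are known on axons, Kcnd2 in dendrites, where it carries the fast A-type current, Kcnc channels in fast-spiking interneurons, and Kcnq channels as carriers of the M-current.

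A selection of accessible sites, strong among those of Kv genes and outside untranslated regions, is shown first as sequence, since values below rest on them. They were read from the RefSeq GRCm38.p6 assembly, the build of the deposited files, and capitals mark bases inside a footprint of replicate 1, that is, a short stretch listed as protected from cutting. The first 3 are peaks found in both libraries beyond 1 kb of any protein-coding transcription start site (TSS). The region in Kcnq1, chr7:143296541-143296800 on the plus strand, lies in an intron. The one of Kcna6, chr6:126702261-126702500, lies in the flank downstream of the gene. That of Kcnq3, the middle 300 bp at chr15:66239191-66239490, lies in an intron. The last 2 are given on the minus strand, which these genes use.
Kcnq1 distal: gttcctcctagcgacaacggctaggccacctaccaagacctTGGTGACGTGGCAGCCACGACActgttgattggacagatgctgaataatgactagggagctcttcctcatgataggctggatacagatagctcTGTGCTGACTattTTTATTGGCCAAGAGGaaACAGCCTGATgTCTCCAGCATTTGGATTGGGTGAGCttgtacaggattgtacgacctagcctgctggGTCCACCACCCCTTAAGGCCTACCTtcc
Kcna6 distal: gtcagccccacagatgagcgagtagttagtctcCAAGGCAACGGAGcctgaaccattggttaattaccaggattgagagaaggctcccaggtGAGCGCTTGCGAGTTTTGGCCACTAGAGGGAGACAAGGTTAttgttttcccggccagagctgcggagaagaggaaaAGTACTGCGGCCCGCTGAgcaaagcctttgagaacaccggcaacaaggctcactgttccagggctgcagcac
Kcnq3 distal: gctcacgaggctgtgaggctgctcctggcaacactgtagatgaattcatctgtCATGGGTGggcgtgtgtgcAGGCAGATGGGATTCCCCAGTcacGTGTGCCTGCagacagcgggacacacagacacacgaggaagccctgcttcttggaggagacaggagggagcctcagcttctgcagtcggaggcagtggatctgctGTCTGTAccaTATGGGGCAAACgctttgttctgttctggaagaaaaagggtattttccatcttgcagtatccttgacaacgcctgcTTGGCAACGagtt
The Kcnq1 region holds 108 footprint bases of 260 and the Kcna6 region 72 of 240. By a search of both strands, the Kcnq1, Kcna6 and Kcnq3 regions hold the E-box CAGATG, and the Kcnq3 region also holds GTTGCCA, part of the motif of Rfx factors.

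The upstream part of 3 promoter peaks, strong among those of Kv genes, follows, cut at the TSS so that no transcribed base is included. They are Kcnh1, chr1:192190621-192190773 on the plus strand, Kcnh4, chr11:100759961-100760160 on the minus strand, and Kcnh2, chr5:24351701-24351920 on the minus strand.
Kcnh1 promoter: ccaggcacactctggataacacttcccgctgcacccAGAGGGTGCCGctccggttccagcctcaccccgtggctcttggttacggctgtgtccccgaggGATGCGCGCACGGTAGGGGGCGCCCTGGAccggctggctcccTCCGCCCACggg
Kcnh4 promoter: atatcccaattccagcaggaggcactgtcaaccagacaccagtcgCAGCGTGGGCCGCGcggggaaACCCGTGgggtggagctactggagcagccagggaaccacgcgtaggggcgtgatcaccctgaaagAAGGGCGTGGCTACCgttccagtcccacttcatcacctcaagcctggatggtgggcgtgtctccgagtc
Kcnh2 promoter: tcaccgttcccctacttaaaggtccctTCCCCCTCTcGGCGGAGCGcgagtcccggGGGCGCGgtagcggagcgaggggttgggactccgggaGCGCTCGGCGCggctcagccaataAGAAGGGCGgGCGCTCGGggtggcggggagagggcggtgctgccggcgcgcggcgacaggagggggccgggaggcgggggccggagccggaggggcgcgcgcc
GC content was 70.6% in the Kcnh1 stretch, 62.5% in that of Kcnh4 and 77.3% in that of Kcnh2. The Sp and Klf letters GGGCGG and AGGGGGC or AGGTGGC, part of the CTCF motif, were both present in the Kcnh1 and Kcnh2 stretches.

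Promoters of Kv genes were accessible in both libraries at 33 of 43 genes (76.7%), against 59.0% of all protein-coding genes. A promoter was counted where the longer deposited list had a peak at most 1 kb from the TSS of any of its protein-coding transcripts. Replicate 1 had a peak at 36 members and replicate 2 at 34. In the shorter, stricter lists 27 members (62.8%) had a peak in both libraries, against 53.2% of all genes. The difference in share was not tested. In bulk tissue, a peak in fewer cells and a weaker peak per cell cannot be told apart.

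The promoter value is the highest peak value there, a signal scaled to the library on a scale that is not stated, with 0 for no peak. Its median over the 43 members was 1.13 in replicate 1 and 1.19 in replicate 2, against 1.20 and 1.17 over all protein-coding genes. These medians include the genes with no peak, which are a larger share of all genes than of the members. Among genes with a promoter peak in both libraries the members had the lower median, 1.37 in replicate 1 and 1.34 in replicate 2 (33 members), against 3.38 and 2.82 (12895 genes). The members ranged from 0 to 11.9 in replicate 1 and from 0 to 8.43 in replicate 2.

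**Figure D1:**
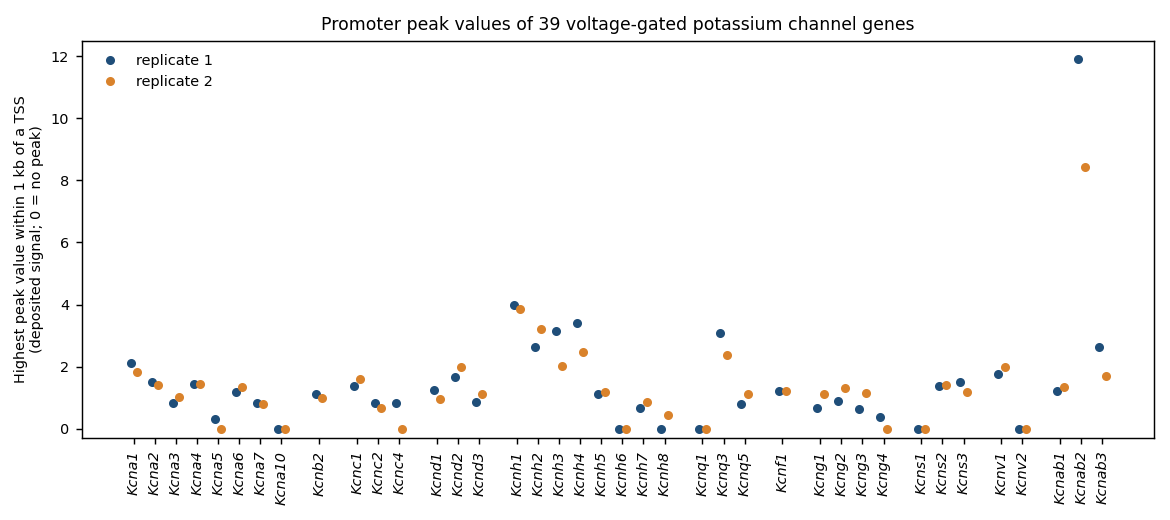
Promoter peak value (y axis, deposited signal, 0 where no peak lies within 1 kb of a TSS) of 39 of the 43 genes (x axis, by subfamily), with 1 point for each library. Kcnab2 lies highest, most other members shown lie below 2 in both libraries, and 5 of those shown lie at 0 in both.

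Among subunits that form channels, 23 of 30 promoters had a peak in both libraries. The Kcna subfamily had 6 of 8. Kcna1, a delayed rectifier of axons, had values of 2.13 in replicate 1 and 1.82 in replicate 2 (1.97 ± 0.223, SD, n = 2), the highest of its subfamily. The middle of that peak lay 1018 bp upstream of the nearest TSS of a protein-coding transcript, so the peak reached the window only with its edge. Other peaks lay closer, since Kcna1 had 5 promoter peaks in replicate 1 and 4 in replicate 2. Kcna2, which assembles with Kcna1 in axons, Kcna3, known also from T cells, Kcna4, an inactivating A-type subunit, Kcna6 and Kcna7 also had a peak in both libraries, with mean values between 0.817 and 1.46. Kcna10 had no promoter peak in either library, and no base within 1 kb of its TSS was listed under an FDR of 0.05 in either.

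Kcnb2, a delayed rectifier, had a peak in both libraries, with 1.11 and 0.991 (1.05 ± 0.0874, SD, n = 2). Its promoter value lay just below the median of all genes in each.

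Of the Kcnc genes, Kcnc1, known from fast-spiking cells, had 1.37 and 1.59 (1.48 ± 0.154, SD, n = 2), and Kcnc2 had 0.831 and 0.671. The 2 values of Kcnc2 come from different sites, 44.9 kb apart at different TSSs of the gene. At the site of its replicate 1 value, chr10:112315221-112315440, the overlapping peak of replicate 2 had 0.485. The highest peaks of the 2 libraries also did not overlap at Kcna2, Kcnd3, Kcng3 and Kcnh5, where they lay within 1 kb of each other, and a weaker overlapping pair was listed at each. Kcnc4 had a peak of 0.840 in replicate 1 only. Its lowest FDR was 0.00878 over 190 listed bases in replicate 1 and 0.0428 over 22 listed bases in replicate 2, so replicate 2 held listed bases but no peak.

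All 3 Kcnd genes, which carry the A-type current that opens below threshold, had a peak in both libraries. Kcnd2 had 1.67 in replicate 1 and 1.99 in replicate 2 (1.83 ± 0.226, SD, n = 2), above Kcnd1 with 1.247 and 0.970 and Kcnd3 with 0.858 and 1.13. Kcnd1 and Kcnd3 changed order between the libraries.

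The Kcnh subfamily, the relatives of ether-a-go-go, held 4 of the 7 members with a mean value above 2.5. Kcnh1 had 3.98 in replicate 1 and 3.85 in replicate 2 (3.91 ± 0.0923, SD, n = 2), at percentiles 74.9 and 81.5 of all genes. Kcnh4 had 3.41 and 2.48, Kcnh2, the mouse counterpart of the human hERG channel, 2.64 and 3.20, and Kcnh3, known from forebrain neurons, 3.16 and 2.02. Each of these 4 exceeded the median of all genes in both libraries, which counts genes with no peak as 0. The medians of genes with a promoter peak in both libraries were higher, 3.38 and 2.82. Kcnh1 exceeded these in both libraries, Kcnh4 in replicate 1 only, Kcnh2 in replicate 2 only and Kcnh3 in neither. Kcnh5, the closest relative of Kcnh1, and Kcnh7, a relative of Kcnh2, had a peak in both libraries with mean values of 1.16 and 0.761. Kcnh8 had a peak in replicate 2 only, at 0.444, and no listed base in replicate 1. A peak of both libraries lay 1.55 kb upstream of its TSS, outside the window, with 1.247 and 0.970. Kcnh6 had no promoter peak in either library.

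Kcnq3, a subunit of the M-channel, had 3.08 and 2.36 (2.72 ± 0.505, SD, n = 2). Kcnq5 had 0.796 and 1.10. Kcnq1, the slow repolarising channel of the heart and epithelia, had no promoter peak in either library.

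Among the silent modifier subunits, 7 of 10 promoters had a peak in both libraries. Kcnf1, the only member of its subfamily, had 1.23 in both (1.23 ± 0.000912, SD, n = 2). Kcnv1 had 1.75 and 1.98 (1.87 ± 0.163, SD, n = 2), the highest mean of the 10. Kcnv2, known from photoreceptors, had no peak in either library. Kcns2 had 1.37 and 1.40 (1.39 ± 0.0231, SD, n = 2) and Kcns3 1.51 and 1.17, so which of them led differed between libraries. Kcns1 had no promoter peak, but a coding-exon peak of both libraries lay 2.46 kb from its TSS at 0.548 and 0.660. Of the Kcng genes, Kcng2 led with 0.884 and 1.32 (1.10 ± 0.309, SD, n = 2), followed by Kcng3 and Kcng1 with means of 0.895 and 0.889. Kcng4 had a peak of 0.363 in replicate 1 only, with a lowest FDR of 0.0197 over 68 listed bases and none in replicate 2.

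All 3 auxiliary genes had a peak in both libraries. Kcnab2, a beta subunit that helps Kcna channels reach the axon, had the highest promoter value of the 43 genes, 11.9 in replicate 1 and 8.43 in replicate 2 (10.2 ± 2.47, SD, n = 2). These values stood at percentile 98.7 and 99.6 of all genes. The replicate 1 peak, at 152477601 to 152477760 on chromosome 4, overlapped that of replicate 2, at 152477441 to 152477620, only at its edge. Their middles also lay 461 and 611 bp from a TSS of Nphp4, a gene of cilia. The peaks thus cannot be assigned to 1 of the 2 genes. Kcnab3 had 2.64 and 1.71, and Kcnab1, which speeds inactivation of Kcna channels, had 1.20 and 1.33.

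The members with a peak in 1 library were few. Kcna5, known from heart and smooth muscle, with 0.318 and a lowest FDR of 0.0253, joined Kcnc4 and Kcng4 in replicate 1, and Kcnh8 stood alone in replicate 2. Their values lay between 0.318 and 0.840, below the median of all genes in that library. Replicate 1 listed 129779 peaks and 227153 footprints, and replicate 2 listed 71895 and 118610. Markers of neurons and of forebrain excitatory neurons had a promoter peak at 5 of 5 genes in each library, with summed values of 17.8 and 13.3 in replicate 1 and 12.7 and 10.1 in replicate 2. Inhibitory neuron markers had a peak at 3 of 5 in replicate 1 and 2 of 5 in replicate 2, with sums of 2.30 and 2.33 and Gad2 and Slc32a1 at 0. Glial markers differed between the libraries. Astrocyte markers had a peak at 3 of 4 and 1 of 4 (sums 2.79 and 0.733, Gfap at 0 in both), oligodendrocyte markers at 3 of 4 and 1 of 4 (2.998 and 1.00) and microglial markers at 3 of 4 and 0 of 4 (1.79 and 0, Cx3cr1 at 0). Endothelial markers had a peak at 1 of 3 and 0 of 3 (0.283 and 0, Cldn5 and Flt1 at 0), and none of 4 markers of tissues outside the brain had one. The part of cell makeup and of list length in the peaks seen in 1 library was not tested.

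Peaks covered the principal TSS of 16 members in replicate 1 and 17 in replicate 2, 14 of them in both, among them Kcna1, Kcna4, Kcnd3, Kcnh1, Kcnh5, Kcns2 and Kcnv1. At the other accessible members the peaks lay beside the principal TSS in at least 1 library. Kcnh3 is an example, with the middle of its highest peak 800 bp downstream of the TSS in replicate 1 and 820 bp in replicate 2. Peaks over the principal TSS were not counted for all genes, so these counts do not set the members apart from other promoters.

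Footprints in Kv promoters numbered 163 in replicate 1 and 144 in replicate 2, or 3.79 and 3.35 per gene, against 3.35 and 2.61 per gene over all protein-coding genes. These means include genes with no footprint, which are a larger share of all genes than of the members. Means over only the genes with a footprint were not computed. Replicate 2 held 0.883 times the footprints of replicate 1 in Kv promoters, 0.781 times in all promoters and 0.522 times in the whole lists. Of the Kv promoter footprints, 48 (29.4%) of replicate 1 and 48 (33.3%) of replicate 2 overlapped a footprint of the other library, against 42.0% and 56.2% of all promoter footprints. Most footprints of Kv promoters were thus listed in 1 library.

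Kcnq5, Kcna1, Kcns2 and Kcnv1 were among the 5 members with most promoter footprints. Kcnq5, a further subunit of M-type channels, had 9 in replicate 1 and 10 in replicate 2 although its peak values were 0.796 and 1.10. Kcna1 had 7 and 11, Kcns2 8 and 7, and Kcnv1 7 and 8. Few of these were common to the libraries. In each library, 1 footprint of Kcnq5, 2 of Kcna1, 2 of Kcns2 and 1 of Kcnv1 overlapped a footprint of the other. Kcnab2, with the highest value, had 5 and 6. No footprint was listed in either library at 9 of 43 members, against 8279 of 21853 protein-coding genes. Among the 9 were Kcna5, Kcna10, Kcng4, Kcnh6, Kcnq1, Kcns1 and Kcnv2.

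Fewer Kv promoter footprints lay just upstream of the TSS than in all promoters. Within 500 bp upstream of the nearest TSS of the gene lay 46.6% of them in replicate 1 and 45.8% in replicate 2, against 59.2% and 58.5% for all genes. More than 500 bp upstream lay 7.98% and 10.4%, against 6.07% and 4.87%, and more than 500 bp downstream lay 14.7% and 13.2%, against 7.15% and 6.49%. The direction was the same in both libraries, and footprints of 1 promoter are not independent.

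**Figure D2:**
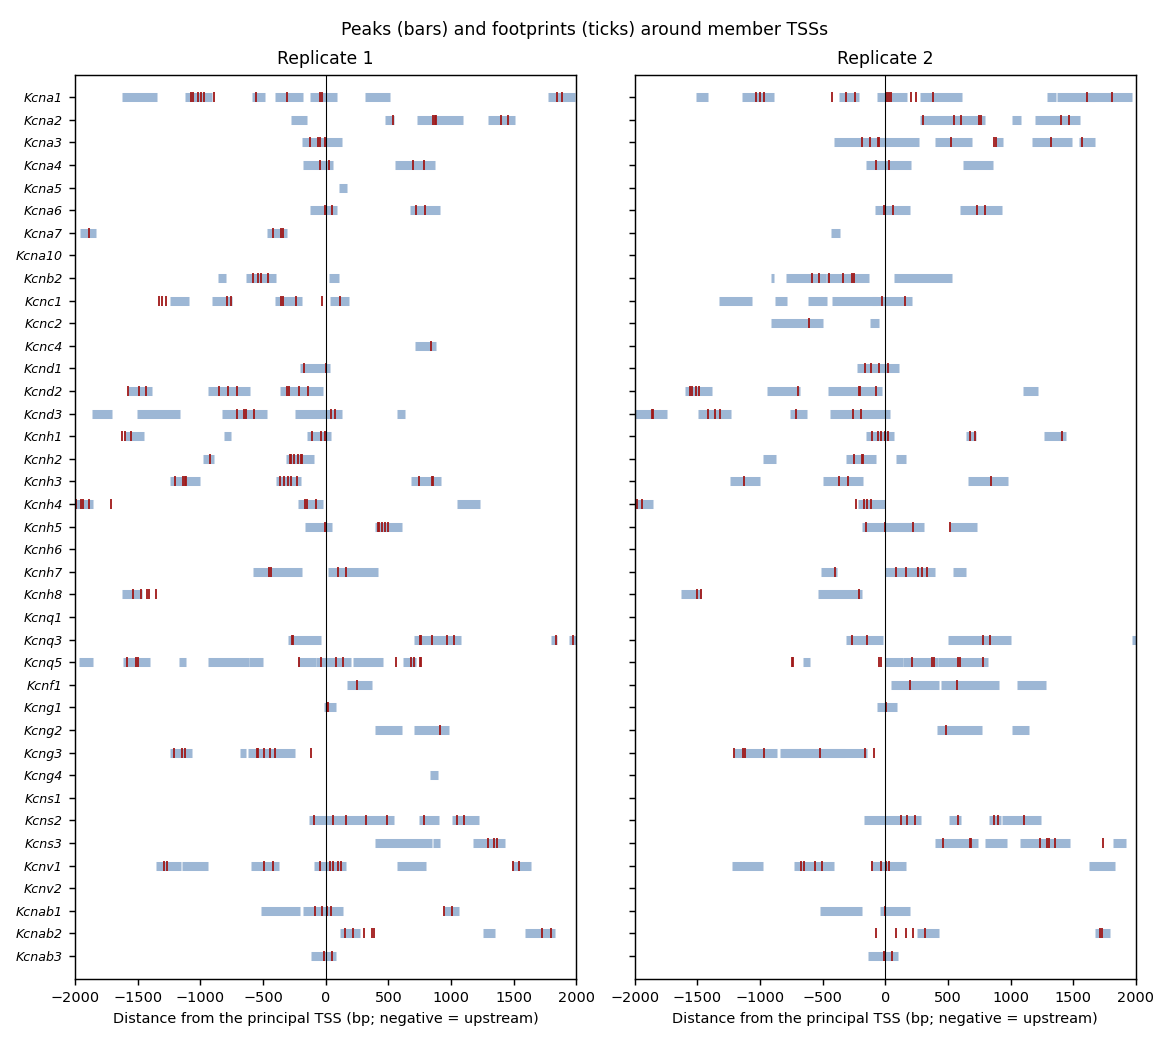
Peaks (bars) and footprints (ticks) of each library by distance from the principal TSS (x axis, bp, negative is upstream) for 39 of the 43 genes (rows), with replicate 1 on the left and replicate 2 on the right. Kcnq5 and Kcna1 carry many ticks, and the rows of Kcna10, Kcnh6, Kcnq1, Kcns1 and Kcnv2 are empty within 1 kb.

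Distal accessible sites were found at 36 of 43 Kv genes (83.7%), against 52.3% of all protein-coding genes. A distal site was a replicate 1 peak that overlapped a replicate 2 peak by at least 1 bp, within the gene body or its 10 kb flanks and beyond 1 kb of any protein-coding TSS. There were 142 such peaks, with a median of 3 per member against 1 over all genes. Kv genes are long, with a median length of 32.0 kb against 17.4 kb. Per 100 kb of gene region, members had 2.38 shared distal peaks and all genes 2.01. Footprints in the whole gene regions went the other way in both libraries. Members had 12.79 per 100 kb in replicate 1 and 7.151 in replicate 2, against 14.97 and 8.899 over all genes. The median of the mean peak values was 1.11 over the 142 and 0.965 over all 41396 shared distal peaks.

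Kcnd3 had the most, 12, with values from 0.575 to 3.42 in replicate 1 and from 0.650 to 1.65 in replicate 2. The 3 strongest of them lay in introns 31.0, 62.6 and 72.1 kb from the nearest TSS of the gene, while its promoter value was below the median of all genes in both libraries. Kcnq3 had 9 and Kcnq1 8, all 8 of the latter in introns. Kcnab1, Kcnab2 and Kcnh1 had 7 each. The 7 peaks of Kcnab2 had from 1.14 to 4.01 in replicate 1 and from 1.20 to 3.68 in replicate 2, and those of Kcnh1 from 0.504 to 1.65 and from 0.640 to 1.21, so the ranges overlapped in both libraries.

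Short genes led by density. Kcnv1 had 10.5 shared distal peaks per 100 kb, Kcnc4 9.70 and Kcnh3 7.90. Kcns2 had 11.5 as listed, but its 3 listed peaks are 2 distinct sites, since 2 of them overlap, and it had 7.68 when these were merged. Kcnc4 thus had 4 shared distal peaks, at up to 2.48 and 2.08, beside a promoter with a peak in 1 library. Kcna4, Kcna5, Kcna7, Kcnf1, Kcnh4, Kcns3 and Kcnv2 had none, and of these Kcnh4 had the highest promoter values, 3.41 and 2.48. Of the members with no promoter peak, Kcna10, Kcnh6, Kcnq1 and Kcns1 had shared distal peaks, 2, 3, 8 and 2 in that order. The 3 listed peaks of Kcnh6 are 2 distinct sites.

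**Figure D3:**
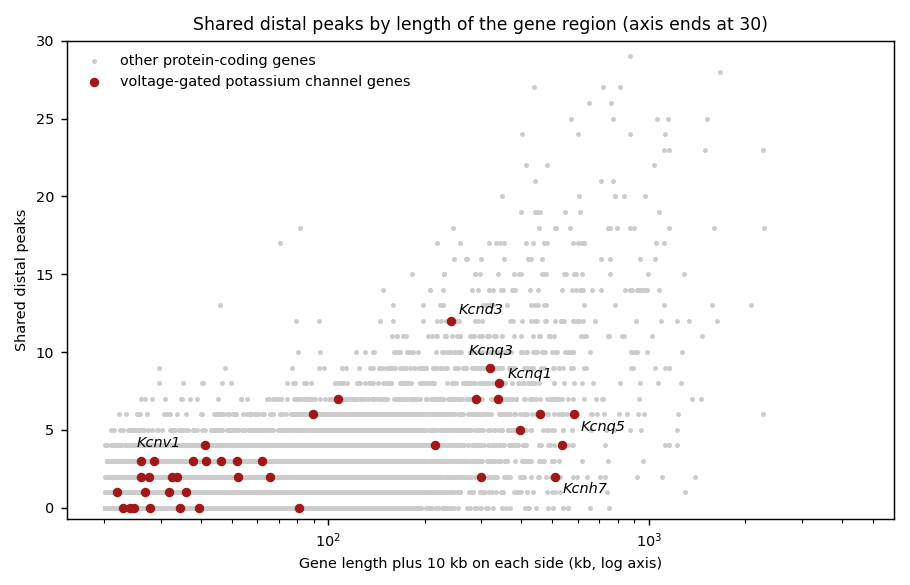
Shared distal peaks (y axis, count, shown up to 30) against the length of the gene with 10 kb on each side (x axis, kb, log axis) for all protein-coding genes (grey) and 39 of the 43 members (red). Kcnd3 leads with 12, Kcnv1 has 3 in a short region, and Kcnh7 has 2 in a long one.

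By place, 88 of the 142 (62.0%) lay in an intron of the member, 24 in the upstream flank, 11 in the downstream flank, 11 in a coding exon, 5 in a UTR and 3 in another exon. For 42 of them (29.6%) the nearest protein-coding TSS was that of another gene. A footprint of each library lay in 101 (71.1%), against 68.6% of all shared distal peaks.

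The strongest shared distal peak was that of Kcnq1, shown above, with 5.81 in replicate 1 and 2.49 in replicate 2 (4.15 ± 2.35, SD, n = 2). It lay 190 kb into the gene and its middle was 121 bp from the TSS of Kcnq1ot1, at 143296549 on the minus strand. Kcnq1ot1 is an antisense noncoding RNA of an imprinted domain, transcribed from the paternal allele. The peak held 6 footprints in replicate 1 and 5 in replicate 2, while the promoter of Kcnq1 itself had neither a peak nor a listed base. The region is therefore a promoter of a noncoding gene by annotation, and it was counted as distal because only protein-coding TSSs were used. Of the 142 peaks 7 (4.93%) lay within 1 kb of a noncoding TSS, against 4.27% of all shared distal peaks. Among them, that of Kcnab3 lay 148 bp from the TSS of Kcnab3os and 1 of Kcnd3 947 bp from that of Kcnd3os.

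Of the 4 that follow it in value, 3 are given here, none of them within 1 kb of a noncoding TSS. The Kcna6 peak had 4.13 and 4.11 (4.12 ± 0.0162, SD, n = 2) and lay 37.8 kb downstream of the nearest TSS of the gene, beyond its 3′ end. Its values were above the Kcna6 promoter, which had 1.17 and 1.34. An intronic Kcng2 peak, at 80317001 to 80317200 on chromosome 18, had 3.86 and 4.10 (3.98 ± 0.170, SD, n = 2). The Kcnq3 peak had 4.65 and 2.85 (3.75 ± 1.28, SD, n = 2), 47.3 kb from the TSS. In each of these genes the distal peak exceeded the promoter in both libraries. These peaks were picked for their high values, and how often a distal peak exceeds the promoter in other genes was not counted.

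Kcna genes stand in 2 clusters, and their accessibility differed within each. On chromosome 3, Kcna3, Kcna2 and Kcna10 lie in that order with gaps of 63.1 and 68.1 kb. Over this cluster and 10 kb on each side, replicate 1 had 24 peaks and replicate 2 had 20, and 13 peaks of replicate 1 were shared. Kcna3 and Kcna2 had promoter peaks and Kcna10 none, though an intronic Kcna10 peak had 1.55 and 1.29. On chromosome 6, Kcna5, Kcna1 and Kcna6 lie in that order with gaps of 105 and 61.9 kb, with 26 and 20 peaks and 15 shared. Beyond the Kcna6 peak described above, the highest values there were 3.32 and 2.84 for a peak between Kcna5 and Kcna1, more than 10 kb from either gene and so outside the counts above.

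**Figure D4:**
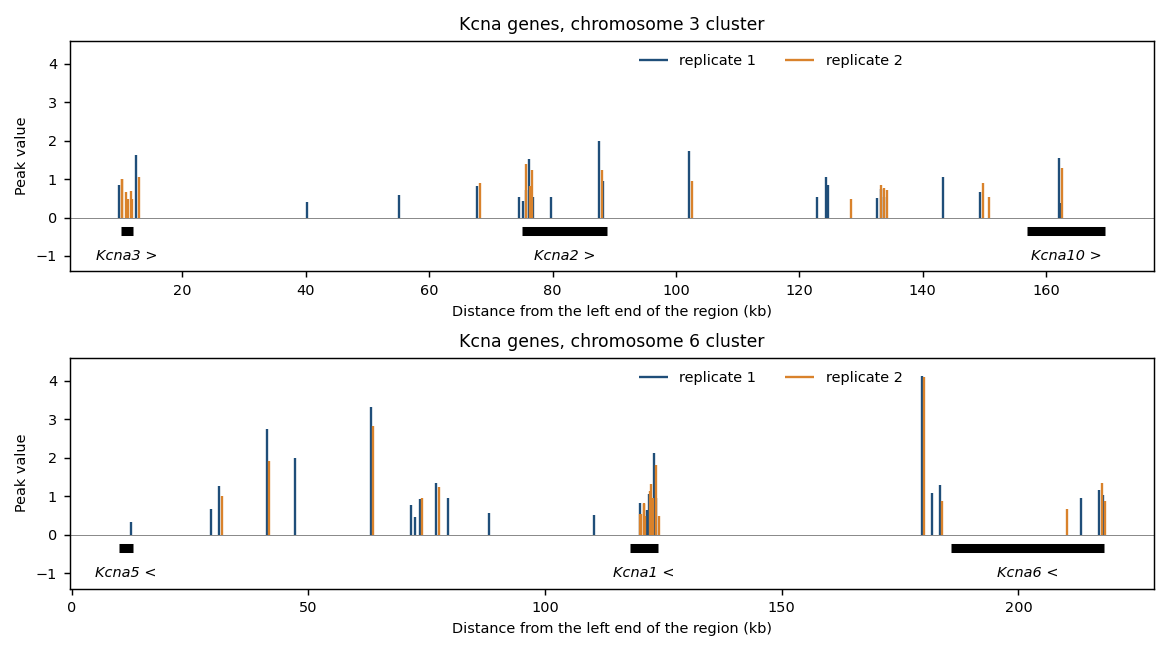
Peak values (y axis, deposited signal) of replicate 1 (blue) and replicate 2 (orange) along the 2 Kcna clusters (x axis, kb from the left end of the region), with gene bodies as black bars and > or < for their strand. The tallest line, 4.13 and 4.11, stands beside Kcna6, and Kcna5 and Kcna10 have no tall line at their start.

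Kv promoters were richer in CpG than protein-coding promoters in general. The median of CpG observed over expected, within 500 bp of the principal TSS, was 0.677 over the members and 0.571 over all genes, and median GC content was 60.6% against 55.2%. Members with a peak in both libraries had a median of 0.695, the 4 with a peak in 1 library 0.455 and the 6 with none 0.452. The order was like that of all genes, at 0.733, 0.376 and 0.184. By quintile of all genes from low to high CpG, a peak in both libraries was found at 0 of 2, 4 of 7, 10 of 12, 12 of 14 and 7 of 8 members, against 7.39%, 27.1%, 74.7%, 90.8% and 95.1% of all genes. Kcnq1 had no promoter peak at 0.749, while Kcnd1 had one at 0.250. Among members the median promoter value from the lowest to the highest quintile, averaged over the libraries, was 0.0907, 0.751, 1.24, 1.90 and 0.989, against 0, 0, 1.75, 3.23 and 3.69 over all genes. The members thus lay above all genes in the 2 lowest quintiles and below in the other 3. The lowest quintile rests on 2 members, Kcna10 at 0 and Kcng4 with a peak of 0.363 in replicate 1 only.

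**Figure D5:**
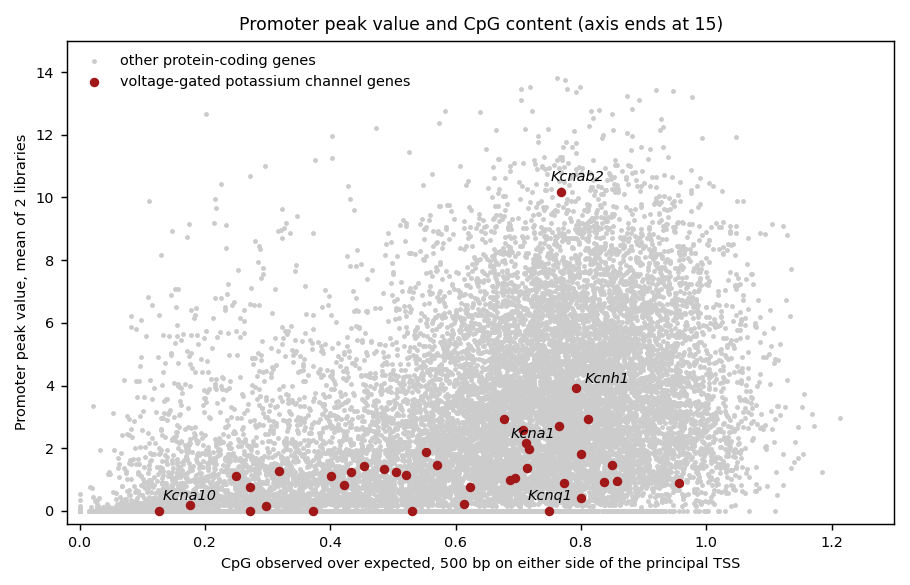
Mean promoter peak value of the 2 libraries (y axis, deposited signal, shown up to 15) against CpG observed over expected within 500 bp of the principal TSS (x axis, ratio) for all protein-coding genes (grey) and 39 of the 43 members (red). Most members shown lie low at any CpG content, Kcnab2 stands above the rest, and Kcnq1 lies at 0 with a high CpG content.

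Letters of known motifs were searched on both strands within 500 bp of the principal TSS. GGGCGG was present at 88.4% of Kv promoters and 61.7% of all promoters, and AGGGGGC or AGGTGGC at 72.1% and 40.9%. Both are G-rich, and Kv promoters had the higher GC content given above. The E-boxes CAGATG and CAGCTG, letters of neuronal bHLH factors among others, were present at 44.2% and 46.5%, against 42.0% and 41.7% of all promoters. TGANTCA was present at 11.6% and 18.6%, and TGACGTCA, the cyclic AMP response element, at 4.65% and 3.37%. GCATGCGC (Nrf1) was present at 2.33% and 5.59%, GTTGCCA at 4.65% and 10.7%, and the Mef2 consensus at 0% and 1.254%. GCGTGGGCG, the Egr motif, was at 0% and 2.06%, and TTGGC and GCCAA with 5 letters between, the Nfi motif, at 0% and 0.0778%.

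Within 20 bp of footprint middles the picture differed from that of whole promoters. GGGCGG stood at 15.3% of Kv promoter footprints in replicate 1 and 13.2% in replicate 2, against 21.01% and 21.57% of all promoter footprints. CAGATG stood at 3.07% and 4.17%, against 1.86% and 1.57%, and CAGCTG at 4.29% and 3.47%, against 2.38% and 2.18%. These Kv shares rest on 5 to 7 footprints each. AGGGGGC or AGGTGGC stood at 2.45% (4 footprints) and 5.56% (8 footprints), against 4.69% and 4.77%, so the direction differed between the libraries. TGACGTCA stood at 0% in both, against 0.882% and 1.04%. In the rest of the gene regions CAGATG stood at 9.80% and 9.62% of Kv footprints, against 10.7% and 10.1% of all footprints beyond promoters. CAGCTG stood at 6.53% and 8.79%, against 5.22% and 5.08%, and TGANTCA at 3.99% and 2.93%, against 2.92% and 1.71%.

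The RE1 element binds REST, which keeps many ion channel genes silent outside neurons. Its letters were searched as CAGCACC and GGACAG with 2 letters between, on both strands, over the whole assembly, and capitals mark the match. They were found at 620 sites, of which 32 (5.16%) lay in a peak of both libraries. A site lay in the gene or its 10 kb flanks for 4 members (9.30%), against 2.30% of all protein-coding genes. Members are longer, with a median length of 32.0 kb against 17.4 kb, and these shares were not adjusted for length. All 4 are shown on the minus strand of GRCm38.p6, at chr4:152424523-152424577 in an intron of Kcnab2, chr1:192457702-192457756 in an intron of Kcnh1, chr5:24357593-24357647 in the upstream flank of Kcnh2 and chr11:100758991-100759045 in an intron of Kcnh4.
Kcnab2 RE1 letters: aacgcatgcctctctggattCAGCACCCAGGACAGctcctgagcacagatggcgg
Kcnh1 RE1 letters: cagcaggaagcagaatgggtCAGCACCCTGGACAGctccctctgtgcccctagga
Kcnh2 RE1 letters: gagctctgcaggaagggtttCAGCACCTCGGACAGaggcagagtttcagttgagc
Kcnh4 RE1 letters: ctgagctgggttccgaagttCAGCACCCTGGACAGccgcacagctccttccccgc
None of the 4 lay in a peak or held a footprint in either library. The Kcnh4 site was 0.729 kb from a TSS whose promoter had a peak in both libraries, so the peak and the site lay apart. A match is a description of letters and not of binding.

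Other channel genes give a scale for these counts, as do all protein-coding genes, of which 59.0% had a promoter peak in both libraries. Of 10 genes for the pore-forming alpha subunits of voltage-gated sodium channels 5 were accessible at the promoter in both libraries, and of 10 for calcium channel alpha-1 subunits 9 were. Median values were 0.491 and 0.464 for the sodium channel genes and 1.47 and 1.61 for the calcium channel genes. Among other potassium channel families, 9 of 15 Kcnj genes (inward rectifiers, 60%) and 9 of 14 Kcnk genes (leak channels, 64.3%) were accessible in both, near the share of all genes. So were 3 of 4 Kcnn genes (small-conductance calcium-activated channels), 1 of 2 Kcnt genes, 2 of 4 Kcnmb genes, Kcnma1 and Kcnu1. Of the Hcn genes, whose channels pass mixed cations, 2 of 4 were accessible in both.

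Partners of Kv channels other than the Kcnab genes were accessible at the promoter in both libraries for 8 of 15 genes (53.3%), against 59.0% of all protein-coding genes. The highest was Adam22, which anchors Lgi1 at synapses, with 6.32 and 4.54. Lgi1 had 3.25 and 2.15, Dpp6, which brings Kcnd channels to the membrane, 3.13 and 2.24, and Kcnip3, a calcium-binding subunit of Kcnd channels, 3.09 and 1.84. Kcne1, Kcne2, Kcne4, Kcnip1 and Kcnrg had no promoter peak in either library, among them Kcne1, the partner of Kcnq1. Kcnip1 had 14 shared distal peaks all the same.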

How the data were processed

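DNase-seq of 2 libraries of 1 group was used. Per the descriptions deposited with the files, peaks, footprints and an FDR of the cut rate per base were listed for each library on mm10 (GRCm38) and not on pooled libraries. Sources used here name no aligner, caller or read depth. Peak heights are signal values that the authors deposited. Values below 1 were whole multiples of 1 step per library, within 0.05 steps, so they served for ranks and description, and any comparison of levels between libraries rests on an unstated scale. The deposited FDR values, read as q-values, list only bases under 0.05. The authors' footprint lists hold 0.01 on every line, and only their positions were used. Reads of the F1 hybrid were placed on mm10, per the labels, and no treatment of CAST/EiJ alleles is described there.

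Genes and TSSs were those of GENCODE M21, and sequence was RefSeq GRCm38.p6. A promoter spanned 1 kb on either side of each TSS of a protein-coding transcript, and a gene region the gene and 10 kb on each side. The principal TSS is 1 TSS per gene, used for sequence and distances. Peaks were shared at an overlap of at least 1 bp. Deposited lists hold some overlapping peaks, which were counted as listed. The members, lists, motifs and named genes were chosen with earlier results of these data known. Some genes that the rules take are not reported here or drawn. The other members are each named with their promoter state; given in full were, per subfamily, the highest promoter and the first with none, all members with a peak in 1 library, and the 5 leading members or peaks by distal number, density, distal value and promoter footprints. Of the listed partner symbols 1, Kcne5, was not found in the annotation. Descriptions replace tests, since 1 group of 2 libraries allows none. The code was tested on simulated data, where 200 of 200 planted promoters were found. Alternatives were shorter or equal peak lists, other windows and flanks, TSSs of all transcripts, a stricter overlap, footprints inside peaks, merged peaks, overlapping promoter peaks and each replicate left out. Python 3.11.15, NumPy 2.4.6, pandas 2.3.3 and matplotlib 3.10.9 were used.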

Additional observations from a re-analysis of the deposited data

How the results depend on the processing

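Of 41 alternative values, 36 stayed within 1.5 times the reported count or within 1 SD of the reported median. That SD is of the 2 library medians, so the median stays within it by construction when either replicate is left out. The number of accessible Kv promoters was 27 with the shorter lists, when Kcna7, Kcnc2, Kcnf1, Kcng1 and Kcng3 were among those that dropped out, 35 with a 2.5 kb window, which added Kcnh8 and Kcns1, and 33 under the other planned settings, against 53.2%, 61.9% and 56.3% to 60.2% of all genes. Leaving out each replicate gave 34 to 36 promoters, median values of 1.13 to 1.19, 38 to 42 genes with a distal peak, 144 to 163 promoter footprints, 427 to 764 gene region footprints and 177 to 338 distal peaks. The 142 shared distal peaks became 71 with the shorter lists and 243 with flanks of 50 kb, and 338 without replicate 2, where no overlap was asked for. They became 140 when overlapping listed peaks were merged. The 33 accessible promoters remained 33 when peaks of the 2 libraries had to overlap, against 58.5% of all genes. Both alternatives were chosen after seeing the data. The mean of 596 footprints in gene regions became 394 with no flank and 1002 with flanks of 50 kb. Those with another flank or list differ by construction, since they count a shorter or longer region or list. The 2 libraries limit precision, and peaks near the threshold, such as those of Kcna5 and Kcng4, cannot be called absent from the other library. No paired analysis was possible because there is 1 group of 2 libraries.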
